A study of Mus musculus with 21 samples.

Results

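The SMAD genes and the genes of the SMURF ubiquitin ligases were described here as 10 genes of 55573 in the deposited tables, chosen by symbol: Smad1, Smad2, Smad3, Smad4, Smad5, Smad6, Smad7, Smad9, Smurf1 and Smurf2. They were followed through 21 RNA-seq libraries, 3 for each of 7 cultures of E0771GFP, a GFP-carrying mouse breast cancer line. A pair of the 7 groups overexpressed ZBTB18, a zinc finger repressor of transcription, together with a doxycycline-inducible TGFBR2, the type II receptor that binds TGF-β. Doxycycline, listed at 1 mg/mL, was given to both, one with TGF-β1 at 2 ng/mL (TGF-β1 cells) and one with vehicle (vehicle cells). The third group overexpressed ZBTB18 alone (ZBTB18 cells) and the fourth carried the empty vector. The lines M11GFP and M12GFP (M11 and M12), which the labels trace to spontaneous lung metastases of E0771GFP cells, and untreated parental E0771GFP made up the others. Each condition was a single line, the vehicle and ZBTB18 cells differed in the receptor construct and in doxycycline at once, and no label says that the 3 libraries of a group were separate cultures, so p-values measure the spread between these libraries, which may be technical.

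SMAD proteins carry signals of the TGF-β family from receptors at the membrane to genes. Activated receptors phosphorylate receptor-regulated SMADs, which are SMAD2 and SMAD3 on the TGF-β and activin branch and SMAD1, SMAD5 and SMAD9 on the BMP branch. These join SMAD4, the shared partner of both branches, and bind DNA together with it. SMAD6 and SMAD7 are inhibitory SMADs whose genes are themselves induced by the signal and which hold the receptors in check, SMAD6 chiefly on the BMP branch. SMURF1 and SMURF2 are HECT-type ubiquitin ligases that mark SMADs and receptors for breakdown, and SMAD7 brings them to the receptor. In breast cancer the pathway is known both for halting growth and for promoting invasion. Transcript levels do not show phosphorylation or protein amount.

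The libraries held 24208564 to 90518866 counts. The labels were checked on their own genes. Zbtb18 averaged 95.2 ± 4.30 CPM (read counts relative to the TMM-scaled library size) in TGF-β1 cells, 82.9 ± 6.49 in vehicle cells and 113 ± 9.64 in ZBTB18 cells, against 25.1 ± 0.910 in empty vector cells and 29.5 ± 1.40 in parental cells (SD, n = 3 each). Tgfbr2 averaged 604 ± 17.4 CPM in TGF-β1 cells and 588 ± 32.7 in vehicle cells, against 1.74 ± 0.253 in ZBTB18 cells (SD, n = 3 each). Vim, a mesenchymal marker, ranged between 2174 and 5458 CPM. Of 4 epithelial markers, Krt8 averaged between 154 CPM (M12) and 342 CPM (TGF-β1 cells), and Epcam between 0.222 CPM (parental) and 3.22 CPM (vehicle). Krt18 averaged at most 3.01 CPM (M12) and Cdh1, an epithelial adhesion gene, at most 0.0934 CPM in any group. The summed level of 4 blood cell markers was 19.7 to 69.8 CPM in M12 and at most 16.4 in every other library. In M12 it was mostly Cd68 (36.9 ± 28.2 CPM). Lyz2 averaged 1.70 ± 1.46 CPM in M12 and 2.08 ± 0.591 in parental cells (SD, n = 3 each). Ptprc averaged 0.0099 CPM in M12 and Cd3e 0. The sum of 3 endothelial markers was 3.54 to 3.99 CPM in M11 and at most 1.90 elsewhere. In M11 Pecam1 averaged 3.14 CPM and Cdh5 0.524, while Kdr was higher in M12 (0.807) than in M11 (0.117). The sum of 3 lung epithelial markers overlapped between M11, M12 and parental cells, at least 0.773, 0.683 and 0.708 CPM in their libraries. The sum of 3 fibroblast markers was larger, at 62.9 to 145 CPM over all libraries. Pdgfra averaged between 71.1 CPM (parental) and 130 CPM (ZBTB18 cells), while Dcn averaged at most 0.0271 CPM and Lum at most 0.0173. In bulk RNA, fewer cells of a kind and less RNA per cell cannot be told apart. Parental replicate 1 placed 14% of its counts on the single gene Gm42418, against at most 0.0918% in the other libraries.

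On the TPM scale, which allows levels of genes to be compared, 8 of the 10 genes were expressed at moderate levels and 2 were almost silent. Smad4 had the highest median over the 21 libraries at 33.9 TPM (range 26.7 to 46.3), followed by Smad2 at 31.3 TPM (18.3 to 40.9) and Smurf2 at 27.3 TPM (17.4 to 34.4). Smad5 stood at a median of 22.1 TPM, Smurf1 at 22.1 TPM, Smad3 at 17.1 TPM, Smad1 at 10.1 TPM and Smad7 at 8.66 TPM. The ranges of neighbours in this order overlapped. Smad9 had a median of 0.17 TPM and Smad6 of 0.04 TPM, both below the lowest library of every other member. Smad5 was thus the main BMP-branch SMAD transcript in these cells, at 1.28 to 3.25 times the TPM of Smad1 in every library. The 2 TGF-β-branch SMADs together made up 39.6% ± 0.269 of SMAD TPM in TGF-β1 cells, 41.1% ± 0.162 in vehicle cells, 38.2% ± 0.686 in ZBTB18 cells, 35.7% ± 1.06 in empty vector cells, 32.6% ± 1.15 in M11, 35.3% ± 2.01 in M12 and 36.3% ± 0.347 in parental cells (SD, n = 3 each). Summed over all 8 SMAD genes, the level was 158 ± 3.42 TPM in empty vector cells and between 103 ± 4.40 (M12) and 128 ± 6.18 TPM (vehicle) on average in the other groups. These sums do not rank the groups, since TPM levels between groups also shifted for genes at large. On log2(TPM + 1) the median log2 fold change of all genes against parental cells was 0.22 for ZBTB18, 0.21 for empty vector, 0.14 for M11 and 0.17 for M12.

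**Figure D1:**
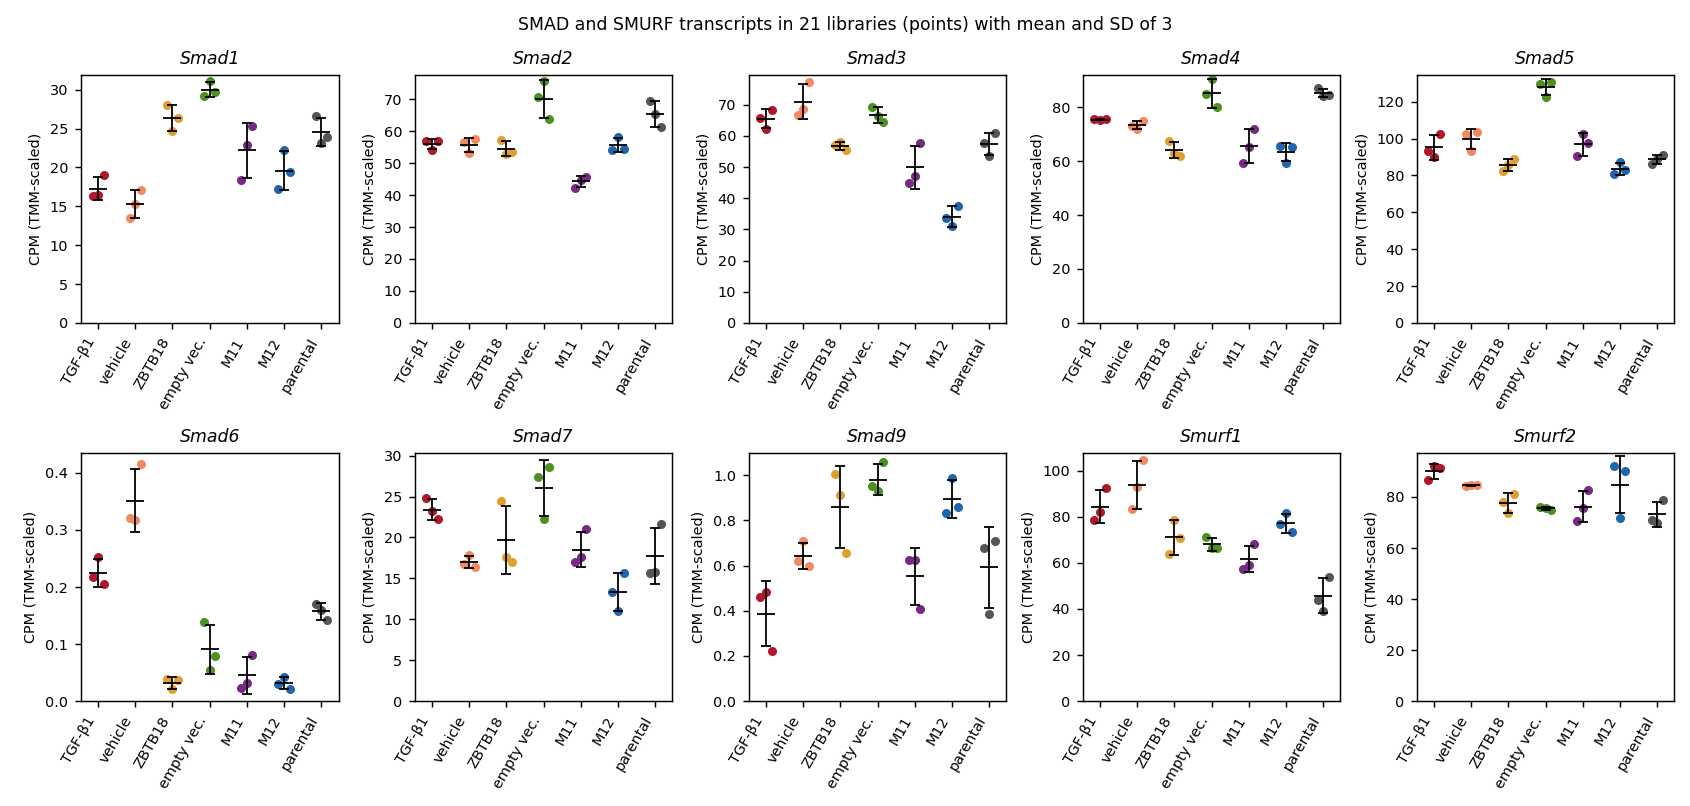
CPM of the 10 genes in every library (points) with the mean and SD of 3 libraries (bars), groups in the same order in each panel. Smad4 stays between 59.4 and 90.5 CPM in all libraries, Smad5 and Smad1 are highest in empty vector cells, Smad3 is lowest in M12, and Smad6 never reaches 0.5 CPM.

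Between groups the members differed by modest amounts. From the lowest to the highest group mean in CPM, Smurf2 spanned 1.23-fold, Smad4 1.34-fold, Smad5 1.53-fold, Smad2 1.58-fold, Smad1 1.96-fold, Smad7 1.96-fold, Smurf1 2.05-fold and Smad3 2.08-fold. Smad9, with 10 to 76 reads a library, spanned 2.53-fold, and Smad6, with 1 to 29 reads, 11.1-fold. Empty vector cells had the highest mean for Smad1, Smad2, Smad5, Smad7 and Smad9, and M12 the lowest for Smad3, Smad4, Smad5, Smad6 and Smad7. Smad6 passed the filter on low counts only through the receptor groups, so the smaller groups rest on 4 to 18 reads and its values are given as reads wherever they matter.

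The first comparison asked how ZBTB18 overexpression changed the family relative to its empty vector. Fitted values are edgeR log2 fold changes of the first group minus the second with their standard errors, and p-values were adjusted by Benjamini-Hochberg over all 15432 genes tested, with a threshold of 0.05. In ZBTB18 cells 5 of 10 members were lower and 0 were higher than in empty vector cells, while 28.4% of all genes tested passed in either direction and 14.5% passed as lower. The 5 were the TGF-β-branch Smad2, the shared partner Smad4, the BMP-branch Smad5 and both inhibitory SMADs, Smad6 and Smad7. The median log2 fold change of the 10 members was -0.30, against 0.01 over all genes. For 6 of 10 the libraries of the 2 groups did not overlap, as for 49.6% of all genes.

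Smad5 changed most firmly. It had 82.7, 85.6 and 88.8 CPM in ZBTB18 cells, against 130, 123 and 131 CPM in empty vector cells. The groups lay far apart and the log2 fold change was -0.58 ± 0.07 (SE; edgeR adjusted p = 2.47e-06). Smad4 had 67.5, 63.1 and 61.9 CPM in ZBTB18 cells, against 84.7, 90.5 and 80.0 CPM in empty vector cells. Again no library of one group reached the other, with a log2 fold change of -0.41 ± 0.07 (adjusted p = 0.000217). Smad2 had 57.3, 52.9 and 53.4 CPM in ZBTB18 cells, against 70.8, 75.7 and 63.8 CPM in empty vector cells, and its log2 fold change was -0.36 ± 0.07 (adjusted p = 0.000726). These groups did not overlap either, but on the TPM scale Smad2 no longer passed (adjusted p up to 0.0613).

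The inhibitory SMADs moved within wider spread. Smad7 had 24.4, 17.6 and 17.0 CPM in ZBTB18 cells, against 27.3, 22.2 and 28.6 CPM in empty vector cells. The highest ZBTB18 library lay above the lowest empty vector library, and the log2 fold change of -0.41 ± 0.15 passed narrowly (adjusted p = 0.049). It was lost on the TPM scale and without empty vector replicate 1 or 3 or ZBTB18 replicate 2 or 3, with adjusted p up to 0.203. Smad6 had 2, 1 and 2 reads in ZBTB18 cells, against 11, 2 and 3 reads in empty vector cells. Summed and scaled by library size, 5 reads against 16 were in a ratio of 0.311 (exact 95% interval 0.0892 to 0.889, for counting error only). Its edgeR call (adjusted p = 0.0478) was lost with DESeq2, without the low-count filter, on the TPM scale, and in 5 of 6 omissions of a library (all but empty vector replicate 2), with adjusted p up to 0.775. Without those libraries 3 to 5 members passed.

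The other members did not pass. Smad3 averaged 56.9 ± 1.28 CPM in ZBTB18 cells and 66.8 ± 2.46 in empty vector cells (SD, n = 3 each), with no overlap and an edgeR adjusted p of 0.0611. It passed with DESeq2 (adjusted p = 0.0428), and in edgeR with a filter of 1 CPM (0.0394), with the replicate number as a block (0.0313) and in the fit of these 6 libraries alone (0.00495). Smad1 had 28.1, 24.7 and 26.4 CPM in ZBTB18 cells, against 29.2, 31.1 and 29.8 CPM in empty vector cells, also without overlap. The interval of its log2 fold change ran between -0.43 and 0.06. Smurf1 and Smurf2 had intervals of -0.17 to 0.29 and -0.14 to 0.21, and Smad9 of -0.75 to 0.37.

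**Figure D2:**
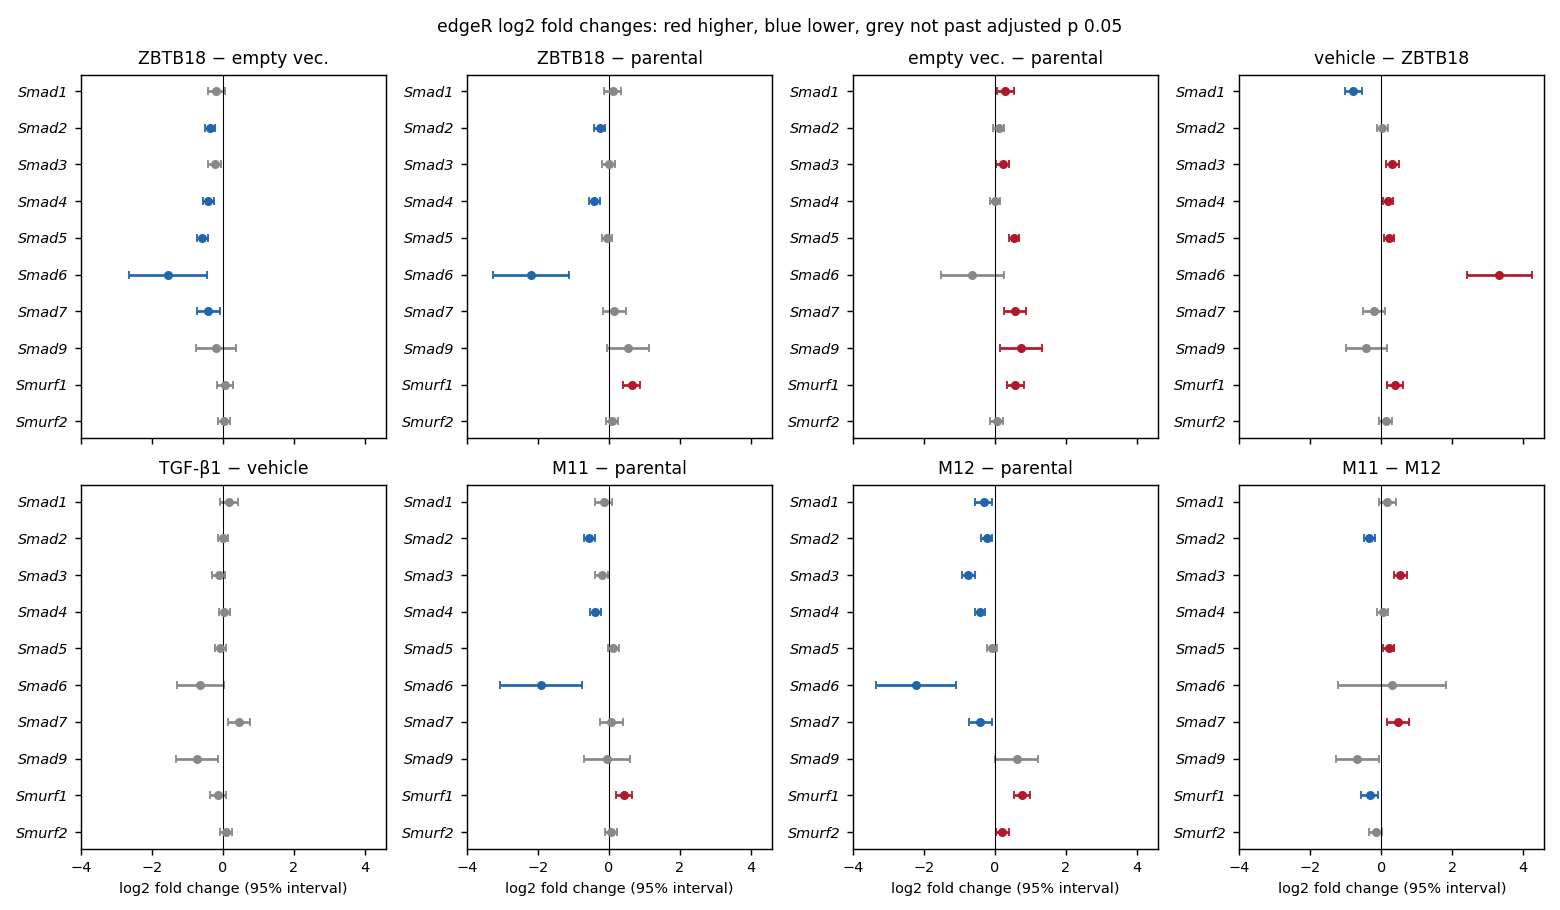
edgeR log2 fold changes (x axis) of the 10 genes in the 8 comparisons with 95% intervals; red points passed the threshold as higher, blue as lower, and grey did not pass. Blue points dominate ZBTB18 against empty vector (5 of 5 calls) and M12 against parental (6 of 8), red points empty vector against parental (6 of 6), and no point is coloured for TGF-β1 against vehicle.

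Among other pathway genes in the same comparison, ligands, receptors and readout genes were counted from lists drawn from general knowledge. Of all genes 14% were higher and 14.5% lower. The lists overlap, so their counts are not separate. Skil is both a corepressor and a TGF-β readout gene, Ldlrad4 and Pmepa1 are both other regulators and TGF-β readout genes, and Bambi is both a receptor and a BMP readout gene. Of 7 tested readout genes of TGF-β SMADs 6 were lower in ZBTB18 cells and 0 higher, with a median log2 fold change of -1.25. They included Skil, a corepressor and feedback target, at 31.0 ± 2.81 CPM in ZBTB18 cells and 74.3 ± 8.55 in empty vector cells (SD, n = 3 each). Of 4 tested readout genes of BMP SMADs 0 passed in edgeR and in DESeq2, and 2 passed as lower without the low-count filter and 1 in the fit of these 6 libraries alone. Id1, a BMP-induced inhibitor of differentiation factors, averaged 89.3 ± 18.3 CPM in ZBTB18 cells and 93.7 ± 17.4 in empty vector cells. Of 11 receptor genes tested 4 were lower and 1 higher; on the TPM scale 2 were lower and 1 higher. Tgfbr2 was lower at a log2 fold change of -3.94 ± 0.10 (adjusted p = 6.51e-17), and Acvrl1, a type I receptor, at -2.35 ± 0.23. Of 5 ligands tested 1 was lower, of 12 corepressors and coactivators 3 were lower and 2 higher, and of 16 other ligases, deubiquitinases, phosphatases and adaptors 2 were lower, a count that ran between 1 and 4 over the alternatives. Without ZBTB18 replicate 1 the receptors had 2 lower, and without ZBTB18 replicate 3 the ligands had 2 lower. Of the corepressors and coactivators 0 were higher without empty vector replicate 1, and 1 was higher without empty vector replicate 2 or 3 or ZBTB18 replicate 1 or 2.

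Genes beside the members on the chromosome moved in the same direction. Smad4, Smad7 and Smad2 lie in this order on chromosome 18 within 2.60 Mb, Smad7 being 1.73 Mb from Smad4 and 0.874 Mb from Smad2 (GENCODE vM21, mm10). Within 5 Mb of Smad7, 22 of the other 37 tested genes (59.5%) were lower in ZBTB18 than in empty vector cells, with a median log2 fold change of -0.38. On the rest of the chromosome 84 of 366 (23%) were lower, with a median of 0.01. Smad5, on chromosome 13 (56703010 to 56742377, plus strand), had 13 of its 20 nearest tested neighbours lower and 0 higher, with a median of -0.43, and 39.9% of the 609 tested genes of chromosome 13 were lower against 3.12% higher. The members' own log2 fold changes, -0.36, -0.41, -0.41 and -0.58, thus lay close to the medians around them. The number of DNA copies was not measured, and its part in these values was not tested. The neighbours of Smad6 and Smad3 on chromosome 9, where the 2 genes stand 0.306 Mb apart, had medians of -0.10 and -0.07.

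**Figure D3:**
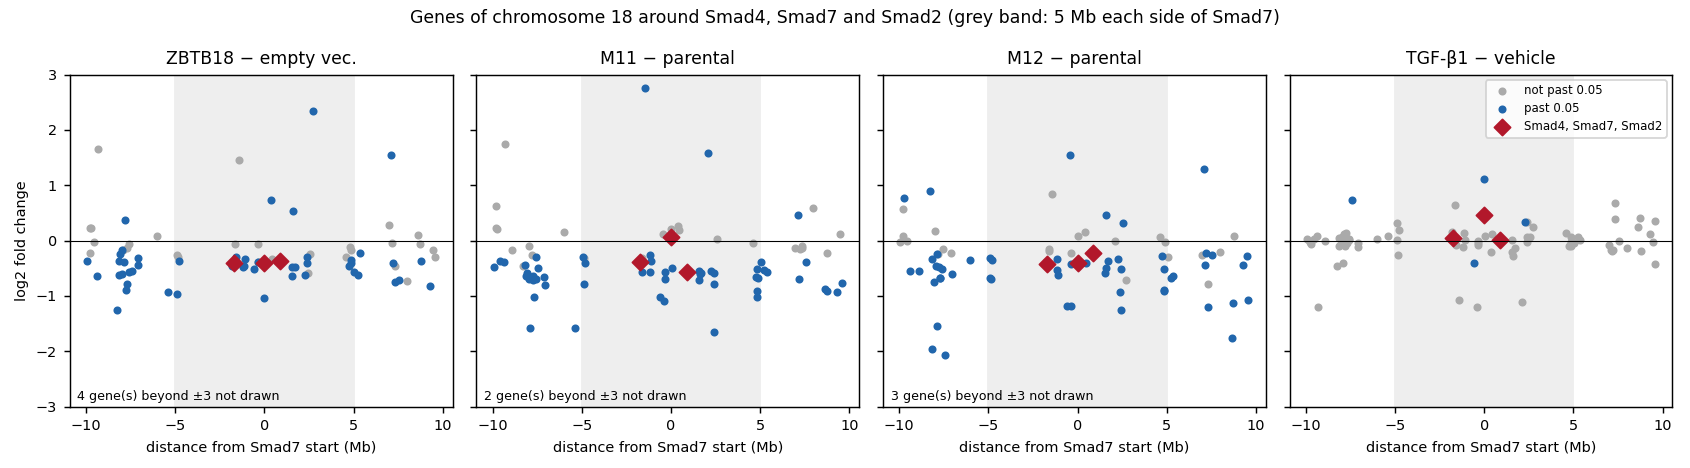
edgeR log2 fold change (y axis) of tested genes of chromosome 18 against their distance from the Smad7 start (x axis, Mb) in 4 comparisons, with Smad4, Smad7 and Smad2 as red diamonds and other genes past the threshold in blue. Within the grey band 59.5% of other genes are lower in ZBTB18 than in empty vector cells, 70.3% in M11 and 64.9% in M12 than in parental cells, and 2.7% in TGF-β1 than in vehicle cells.

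The vector control and the ZBTB18 line were each also set against the parental line. In empty vector cells 6 of 10 members were higher than in parental cells and 0 were lower, where 58% of all genes passed and 28.9% passed as higher. The 6 were Smad1, Smad3, Smad5, Smad7, Smad9 and Smurf1, and 7 of 10 did not overlap (61.1% of all genes). Mitochondrial genes took 1.00 to 1.09% of counts in ZBTB18 cells, 0.861 to 1.07% in empty vector cells and 2.41 to 2.56% in parental cells, and their part in either comparison with parental cells was not tested. Smad5 had 130, 123 and 131 CPM in empty vector cells, against 86.4, 88.7 and 91.0 CPM in parental cells. All empty vector libraries lay above all parental ones, at a log2 fold change of 0.53 ± 0.07 (edgeR adjusted p = 3.87e-06). Smurf1 had 71.1, 66.3 and 66.5 CPM in empty vector cells, against 44.0, 39.1 and 54.0 CPM in parental cells. These did not overlap, with a log2 fold change of 0.57 ± 0.11 (adjusted p = 0.000191). Smad7 had 27.3, 22.2 and 28.6 CPM in empty vector cells, against 15.6, 15.8 and 21.6 CPM in parental cells, apart by 0.56 ± 0.15 on the log2 scale (adjusted p = 0.00375). Of the 20 nearest tested neighbours of Smad5, 11 were higher and 4 lower, with a median log2 fold change of 0.48. Those of Smurf1 and Smad7 went the other way, with 3 and 2 higher, 11 and 9 lower, and medians of -0.40 and -0.13. The part of the neighbourhood was not tested. Smad1 (0.29), Smad3 (0.22) and Smad9 (0.74) passed less firmly, with adjusted p up to 0.145, 0.196 and 0.199 on leaving out a library. With empty vector replicate 1 or 3 or parental replicate 2 left out, 3 members passed, and the same number without a low-count filter or with one of 1 CPM.

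ZBTB18 cells had 3 members lower and 1 higher than parental cells in edgeR, where 61.7% of all genes passed, 29.9% as higher and 31.8% as lower. In CPM 4 of 10 did not overlap (63.5% of all genes). On both TPM scales 0 members were lower and 7 higher. Of all 15432 genes, 6970 were then higher and 2185 lower on log2(TPM + 1), and 7054 and 2298 on log2(TPM + 0.1). Smad4 had 67.5, 63.1 and 61.9 CPM in ZBTB18 cells, against 87.0, 84.2 and 84.4 CPM in parental cells. The groups stood apart, at a log2 fold change of -0.41 ± 0.07 (edgeR adjusted p = 6.23e-05), which did not pass on the TPM scale (up to 0.190). Smad2 followed at -0.26 ± 0.07 (adjusted p = 0.0043), a value that became 0.18 on log2(TPM + 1), where the median of all genes shifted to 0.22. Smad6 had 5 reads in ZBTB18 cells and 18 in parental cells, a ratio of 0.205 (0.0596 to 0.574), and its call (adjusted p = 0.00125) was lost on the TPM scale. Smurf1 was higher at 63.7, 78.7 and 70.6 CPM in ZBTB18 cells, against 44.0, 39.1 and 54.0 CPM in parental cells, without overlap and at 0.64 ± 0.11 (adjusted p = 4.72e-05), also on the TPM scale. Smurf1 lies on chromosome 5 (144876495 to 144965847, minus strand), where 12 of its 20 nearest tested neighbours were lower in ZBTB18 than in parental cells and 1 was higher. Of the 20 neighbours of Smad4 13 were lower and 0 higher, with a median log2 fold change of -0.39. Of those of Smad2 14 were lower and 1 higher, with a median of -0.80. For Smad6 4 were lower and 6 higher. The part of these shifts was not tested. Smad5, lower in ZBTB18 than in empty vector cells, averaged 85.7 ± 3.08 CPM in ZBTB18 cells and 88.7 ± 2.33 in parental cells (SD, n = 3 each), an interval of -0.20 to 0.10, while on log2(TPM + 1) its log2 fold change was 0.27 (limma adjusted p = 0.028). These comparisons share their parental libraries, and those with ZBTB18 or empty vector cells share those.

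Other genes of the pathway were counted against the 29.9% of all genes that were higher in ZBTB18 cells and the 28.9% that were higher in empty vector cells. Of 16 tested ligases, deubiquitinases, phosphatases and adaptors, 11 were higher in ZBTB18 than in parental cells and 1 was lower, and 11 were higher and 0 lower in empty vector than in parental cells. Usp9x, a deubiquitinase of SMAD4, averaged 153 ± 22.8 CPM in empty vector cells and 84.7 ± 15.2 in parental cells (SD, n = 3 each). Of 11 receptors 4 were higher and 2 lower in ZBTB18 cells, and 7 were higher and 1 lower in empty vector cells. Of 12 corepressors and coactivators 5 were higher and 1 lower in ZBTB18 cells, and 7 were higher and 0 lower in empty vector cells. On the TPM scale, where medians of all genes rose to at least 0.21 in both, these became 8 higher and 1 lower receptors in ZBTB18 cells, 9 and 0 in empty vector cells, and 9 and 1 corepressors and coactivators in ZBTB18 cells. Of 7 TGF-β readout genes 1 was higher and 3 lower in ZBTB18 cells, and 3 were higher and 1 lower in empty vector cells. Of 4 BMP readout genes 1 was higher in ZBTB18 cells, and 3 were higher in empty vector cells. Of 5 ligands 1 was higher and 2 lower in ZBTB18 cells, and 2 were higher and 2 lower in empty vector cells. Single libraries moved several of these counts. Against parental, ZBTB18 cells had 3 corepressors and coactivators higher and 2 lower without parental replicate 2. The other regulators were then 8 higher and 0 lower, without ZBTB18 replicate 2 they were 10 and 0, and without ZBTB18 replicate 3 they were 9 and 0. The TGF-β readout genes had 0 higher without parental replicate 2 or 3 or ZBTB18 replicate 3, and the BMP readout genes 3 higher without parental replicate 3 and on the TPM scale. In empty vector cells 1 ligand was higher without empty vector replicate 1 or 2 or parental replicate 1 or 2, and 5 TGF-β readout genes were higher on the TPM scale.

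Cells that carried the inducible receptor and doxycycline differed from ZBTB18 cells in transcript levels of BMP-branch and other members, with no TGF-β1 added. In vehicle cells 5 of 10 members were higher and 1 was lower than in ZBTB18 cells. Of all genes 38.8% passed, 19.5% as higher and 19.3% as lower, and 7 of 10 members did not overlap (57.2% of all genes). Both member counts include Smad6, which passed the low-count filter only through the receptor groups, where it was high. Mitochondrial genes took 0.586 to 0.734% of counts in vehicle cells and 1.00 to 1.09% in ZBTB18 cells, and the part of this was not tested. Smad1 was the member that was lower. It had 13.5, 15.3 and 17.1 CPM in vehicle cells, against 28.1, 24.7 and 26.4 CPM in ZBTB18 cells. All vehicle libraries lay below all ZBTB18 libraries, at a log2 fold change of -0.79 ± 0.12 (edgeR adjusted p = 2.1e-05), and the call held under every alternative run. Smad5, its branch partner, was higher instead, at 99.8 ± 5.57 CPM in vehicle cells and 85.7 ± 3.08 in ZBTB18 cells (SD, n = 3 each), with a log2 fold change of 0.22 ± 0.07 (adjusted p = 0.0177). That call was lost on the TPM scale, without the low-count filter and without ZBTB18 replicate 1 or vehicle replicate 1 or 3 (adjusted p up to 0.254). Of the 20 nearest tested neighbours of Smad5, 6 were higher and 2 lower, with a median of 0.19. Their part was not tested. The ratio of Smad5 to Smad1 TPM, which needs no scaling between libraries, was 3.25, 2.61 and 2.62 in vehicle cells, against 1.28, 1.67 and 1.66 in ZBTB18 cells. The groups did not overlap.

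Smad6, the inhibitory SMAD of the BMP branch, had the largest fitted difference of the members. It lies on chromosome 9 (63953076 to 64022059, minus strand). Vehicle cells had 29, 17 and 18 reads, against 2, 1 and 2 reads in ZBTB18 cells. Every vehicle library lay above every ZBTB18 library, and the ratio of 64 reads to 5, scaled by library size, was 10.6 (exact interval 4.31 to 33.7). The fitted log2 fold change was 3.33 ± 0.44 (edgeR adjusted p = 4.06e-06). Since the low-count filter kept Smad6 only through the receptor groups, this p is not independent of the filter. In the fit with no such filter it also passed. Even so its level in vehicle cells was 0.317 to 0.415 CPM, in the lowest range of expressed genes. The promoter of Smad6 is shown because its transcript differed most, and that of Smad1 beside it because Smad1 was lower in the same cells. Both are 250 bases before to 50 after the start site from RefSeq on GRCm38.p6, read 5′ to 3′ on the minus strand, at chr9:64022010-64022309 and chr8:79399379-79399678. Capitals mark a match to GTCTAGAC, the palindrome bound by SMAD MH1 domains.
Smad6: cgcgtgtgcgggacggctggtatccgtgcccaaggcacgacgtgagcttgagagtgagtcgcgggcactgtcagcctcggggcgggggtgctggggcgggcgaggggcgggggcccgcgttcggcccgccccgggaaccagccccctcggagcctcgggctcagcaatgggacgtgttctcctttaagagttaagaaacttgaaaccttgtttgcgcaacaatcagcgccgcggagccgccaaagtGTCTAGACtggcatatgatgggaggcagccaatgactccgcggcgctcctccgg
Smad1: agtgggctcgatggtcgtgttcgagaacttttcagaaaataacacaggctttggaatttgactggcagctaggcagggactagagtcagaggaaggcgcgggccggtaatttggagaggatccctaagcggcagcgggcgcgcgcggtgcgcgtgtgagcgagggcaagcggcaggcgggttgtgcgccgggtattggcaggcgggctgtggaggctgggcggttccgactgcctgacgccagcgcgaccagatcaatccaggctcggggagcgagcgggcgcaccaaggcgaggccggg
The GTCTAGAC match in Smad6 begins 4 bases before the start site, at position -4. On either strand 0.213% of 32851 promoters of this length held these letters. CATCTG, the core of the ZBTB18 binding site, occurs in 17.2% of them, and AGCCAGACA, the CAGA box, in 0.387%. The windows of the 7 members with a printable promoter (Smad1, Smad3, Smad5, Smad6, Smad9, Smurf1 and Smurf2) held neither of those 2, and GTCTAGAC stood in that of Smad6 alone. A match is a description of letters.

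Genes listed as readouts of BMP SMADs were also lower in these cells, and the part of BMP SMADs in this was not tested. All 4 tested of 7 listed readout genes were lower in vehicle than in ZBTB18 cells, with a median log2 fold change of -2.99, where 19.3% of all genes were lower. The 4 were Id1, Id2, Id3 and Atoh8, the last resting on 5 reads in vehicle and 32 in ZBTB18 cells. Id2 had 1.06, 0.391 and 0.692 CPM in vehicle cells, against 19.8, 14.3 and 12.3 CPM in ZBTB18 cells. The groups did not overlap, at a log2 fold change of -4.36 ± 0.32 (edgeR adjusted p = 3.79e-09). Id3 had 4.55, 7.49 and 9.66 CPM in vehicle cells, against 91.7, 50.5 and 52.6 CPM in ZBTB18 cells, at -3.19 ± 0.36 (adjusted p = 3.29e-06). Id1 had 33.0, 34.0 and 29.8 CPM in vehicle cells, against 110, 79.0 and 78.6 CPM in ZBTB18 cells, at -1.47 ± 0.16 (adjusted p = 5.86e-07). The ID genes encode helix-loop-helix proteins that block differentiation factors. Among receptors, Acvr1, a type I receptor of the BMP branch, averaged 7.82 ± 0.881 CPM in vehicle cells and 16.7 ± 1.18 in ZBTB18 cells (SD, n = 3 each). Bmpr1a and Bmpr2 did not pass, at log2 fold changes of 0.05 and 0.06.

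**Figure D4:**
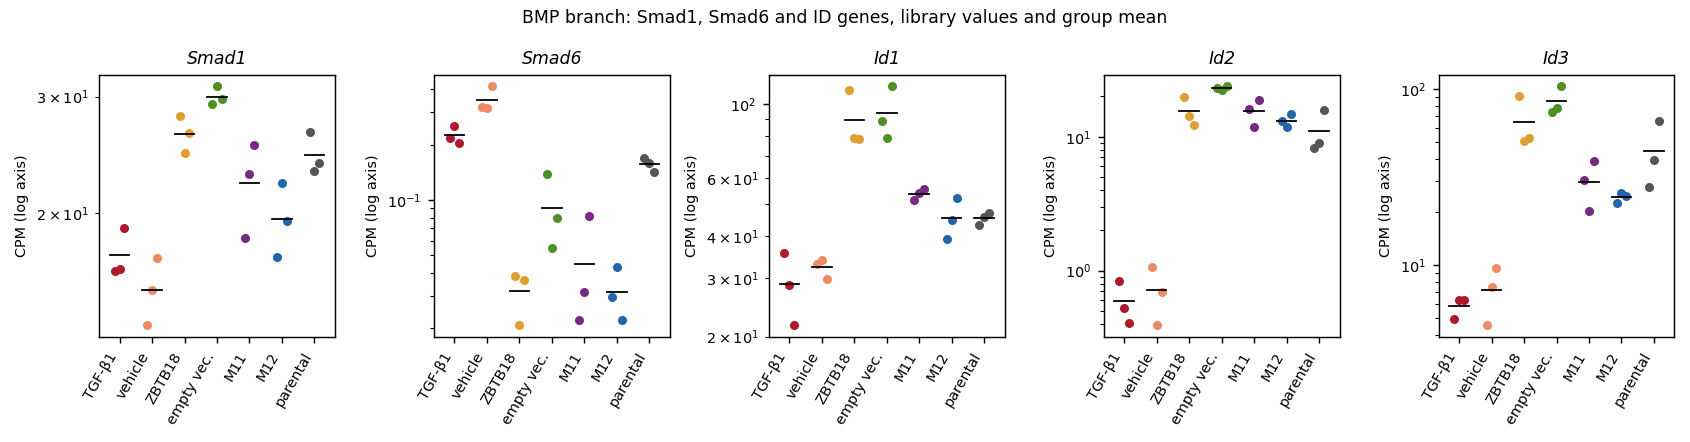
CPM on a log axis of Smad1, Smad6 and the BMP-induced Id1, Id2 and Id3 in every library (points) with group means (bars). In the TGF-β1 and vehicle groups Smad1 and the 3 ID genes lie below the ZBTB18 libraries while Smad6 lies above them.

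Smad3, Smurf1 and Smad4 were also higher in vehicle than in ZBTB18 cells, by small amounts, while Smad2, Smad7, Smad9 and Smurf2 did not pass. Smad3 averaged 71.0 ± 5.63 CPM in vehicle cells and 56.9 ± 1.28 in ZBTB18 cells (SD, n = 3 each), a log2 fold change of 0.32 ± 0.09 (edgeR adjusted p = 0.00796). Smurf1 averaged 93.5 ± 10.4 CPM in vehicle cells and 71.0 ± 7.47 in ZBTB18 cells, at 0.40 ± 0.11 (adjusted p = 0.00661). Smad4 had 72.9, 72.0 and 74.9 CPM in vehicle cells, against 67.5, 63.1 and 61.9 CPM in ZBTB18 cells, at 0.19 ± 0.07 (adjusted p = 0.0421). None of these 3 passed on the TPM scale. Smad4 was also lost without the low-count filter, without Gm42418 and without any single library but ZBTB18 replicate 1 (adjusted p up to 0.138 on leaving out a library and 0.367 on the TPM scale), and Smad3 without vehicle replicate 3 (0.054), when 3 members passed. Of 7 TGF-β readout genes 4 were higher and 1 lower in vehicle cells, led by Col1a1, a collagen, and Cdkn1a, a cell cycle inhibitor at 184 ± 24.0 CPM in vehicle cells and 65.7 ± 15.4 in ZBTB18 cells. Of 11 receptors 2 were higher and 3 lower, where 38.8% of all genes passed. The higher receptors included Tgfbr2, the gene of the inducible construct itself (588 CPM in vehicle cells, 1.74 in ZBTB18 cells). Of 12 corepressors and coactivators 4 were higher and 2 lower. Of 16 other regulators 2 were higher and 4 lower, and of 5 ligands 1 was lower. On log2(TPM + 1) receptors, corepressors and other regulators had 1 and 2, 3 and 0, and 0 and 2. On leaving out any single library 1 receptor was higher and 2 or 3 were lower. The corepressors and coactivators had 1 lower, and the TGF-β readout genes 0 lower, without ZBTB18 replicate 1 or 3 or vehicle replicate 1 or 2. The other regulators had 1 higher and 3 lower without any library but vehicle replicate 3, and 2 higher and 7 lower in the fit of these 6 libraries alone.

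TGF-β1 was added to cells with the receptor, so the next comparison shows the members under ligand. With TGF-β1 0 of 10 members passed against vehicle in edgeR, where 1.91% of all genes passed, 1.26% as higher and 0.654% as lower. At an unadjusted p under 0.05 there were 2 members (12.9% of all genes), Smad7 and Smad9. DESeq2 and limma on TPM also called 0. None of these fits paired the libraries of the 2 groups. For 5 of 10 the libraries did not overlap (27.6% of all genes). The receptor-regulated Smad2 averaged 56.0 ± 1.66 CPM in TGF-β1 cells and 55.8 ± 2.21 in vehicle cells (SD, n = 3 each), an interval of -0.15 to 0.16 on the log2 scale. Smad3 had an interval of -0.30 to 0.07, Smad4 of -0.11 to 0.19, Smad1 of -0.07 to 0.42 and Smad5 of -0.22 to 0.08.

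Smad7, the feedback inhibitor of the TGF-β branch, came nearest to a call. It had 24.8, 23.2 and 22.2 CPM in TGF-β1 cells, against 16.8, 17.9 and 16.4 CPM in vehicle cells. Every TGF-β1 library lay above every vehicle library, and the log2 fold change was 0.46 ± 0.15 with an edgeR adjusted p of 0.135. It passed without the low-count filter (adjusted p = 0.0177) and in a fit of these 6 libraries alone (0.00387), and over all alternatives the adjusted p ran between 0.00387 and 0.698. As a share of SMAD TPM the inhibitory SMADs made up 8.61% ± 0.251 in TGF-β1 cells and 6.59% ± 0.172 in vehicle cells (SD, n = 3 each). Smad6 went the other way, with 17, 11 and 12 reads in TGF-β1 cells, against 29, 17 and 18 reads in vehicle cells. In CPM the groups did not overlap, and 40 reads against 64 gave a ratio of 0.648 (0.425 to 0.977), while edgeR gave an adjusted p of 0.411. Smad9 had 0.460, 0.481 and 0.222 CPM in TGF-β1 cells, against 0.621, 0.708 and 0.600 CPM in vehicle cells, below them without overlap (adjusted p = 0.243).

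Corepressors that bind SMADs did pass in the same libraries, where 1.91% of all genes passed. Skil had 53.7, 62.9 and 66.9 CPM in TGF-β1 cells, against 21.3, 22.8 and 30.6 CPM in vehicle cells. The groups stood far apart, at a log2 fold change of 1.30 ± 0.13 (edgeR adjusted p = 3.66e-06). Ski, its homologue, had 102, 101 and 87.5 CPM in TGF-β1 cells, against 59.7, 61.2 and 57.8 CPM in vehicle cells, at 0.70 ± 0.12 (adjusted p = 0.0042). These were 2 of 12 corepressors and coactivators, 1 of which passed on the TPM scale. Of 7 TGF-β readout genes 4 were higher, with a median of 0.89. Of 16 other regulators 1 was higher, Ldlrad4, an inhibitor of SMAD2 and SMAD3 activation, at 0.73 ± 0.15. That call was lost without TGF-β1 replicate 2 or 3 or vehicle replicate 2. Skil and Ldlrad4 are themselves among the 4 readout genes, so each is counted in both lists. Of 4 BMP readout genes, 11 receptors and 5 ligands 0 passed in edgeR; without the low-count filter 1 receptor was lower, and with these 6 libraries alone 1 was higher.

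The lines from lung metastases were compared with the parental line and with each other. Smad2, Smad4 and Smad6 were lower and Smurf1 was higher in both M11 and M12 than in parental cells, which both comparisons share. In M11 3 of 10 members were lower and 1 higher, where 40.7% of all genes passed, 20.8% as higher and 20% as lower, and 4 of 10 did not overlap (41.6%). In M12 6 were lower and 2 higher, where 50.1% passed, 24.9% as higher and 25.2% as lower, and 7 of 10 did not overlap (47.8%). The median log2 fold change of the members was -0.10 in M11 and -0.28 in M12, against 0.00 and -0.01 over all genes.

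Smad2 had 42.3, 44.8 and 45.8 CPM in M11, 54.2, 58.1 and 54.4 CPM in M12, and 69.4, 65.3 and 61.2 CPM in parental cells. The 3 lines did not overlap. The log2 fold change was -0.56 ± 0.07 in M11 (edgeR adjusted p = 3.5e-06) and -0.23 ± 0.07 in M12 (adjusted p = 0.012). In M11 the call held under every alternative, while in M12 the value was 0.00 on the TPM scale, where the median of all genes stood at 0.17, and the call was lost there, in the fit of these 6 libraries alone and without parental replicate 1 (adjusted p = 0.0572). Smad4 had 59.4, 65.2 and 71.9 CPM in M11, 65.7, 59.5 and 65.1 CPM in M12, and 87.0, 84.2 and 84.4 CPM in parental cells. Both lines lay below the parental libraries, at -0.38 ± 0.07 and -0.43 ± 0.07 (adjusted p = 0.00027 and 5.41e-05), and neither passed on the TPM scale. Within 5 Mb of Smad7 on chromosome 18, 26 of 37 other tested genes (70.3%) were lower in M11 and 24 (64.9%) in M12, with medians of -0.54 and -0.39, while the rest of the chromosome had medians of 0.25 and 0.12. Smad7 itself averaged 18.5 ± 2.17 CPM in M11, 13.3 ± 2.33 in M12 and 17.7 ± 3.43 in parental cells (SD, n = 3 each), and it passed as lower in M12 at -0.41 ± 0.15 (adjusted p = 0.032). That call was lost without parental replicate 3 or M12 replicate 1 or 2, with the 6 libraries alone and on the TPM scale (adjusted p up to 0.669).

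Smad3 separated M12 from every other group. It had 44.9, 47.2 and 57.7 CPM in M11, 33.7, 31.2 and 37.6 CPM in M12, and 57.8, 53.7 and 60.8 CPM in parental cells. M12 lay below all other libraries, at a log2 fold change of -0.75 ± 0.09 against parental (edgeR adjusted p = 8.12e-07), and the call held under every alternative. M11 did not pass (-0.20 ± 0.09, adjusted p = 0.0801). It passed without M11 replicate 3, at -0.32 (edgeR adjusted p = 0.00739), when 5 members passed, and with the replicate number as a block (0.0429). The Smad3 to Smad2 TPM ratio was 0.633, 0.606 and 0.706 in M11, 0.317, 0.324 and 0.423 in M12, and 0.493, 0.452 and 0.512 in parental cells. M11 lay above and M12 below the parental line in this measure, which no scaling between libraries touches. Smad1 was lower in M12, at 19.6 ± 2.51 CPM in M12 and 24.5 ± 1.80 in parental cells (SD, n = 3 each; log2 fold change -0.32 ± 0.12, adjusted p = 0.0284). This was lost without parental replicate 1 or M12 replicate 1 (adjusted p up to 0.138), either of which left 5 members past the threshold, with the 6 libraries alone and on the TPM scale. On its chromosome 8, 422 of 826 tested genes were lower in M12 and 91 higher, with a median of -0.33. Smad6 had 4 reads in M11, 4 in M12 and 18 in parental cells, ratios of 0.251 (0.0617 to 0.761) and 0.202 (0.0498 to 0.615). The M11 call was lost without M11 replicate 1 (adjusted p = 0.110), with DESeq2, without the low-count filter and on the TPM scale, and the M12 call on the TPM scale.

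Smurf1 was the ligase that was higher in both lines. It had 57.5, 59.2 and 68.1 CPM in M11, 76.8, 81.5 and 73.3 CPM in M12, and 44.0, 39.1 and 54.0 CPM in parental cells. Both lines lay above the parental libraries, at log2 fold changes of 0.43 ± 0.11 (edgeR adjusted p = 0.00377) and 0.76 ± 0.11 (8.38e-06), under every alternative run. In M11 11 of its 20 nearest tested neighbours on chromosome 5 were lower and 1 higher, with a median of -0.35. Smurf2 passed in M12 only narrowly, at 84.7 ± 11.2 CPM in M12 and 73.2 ± 4.98 in parental cells (SD, n = 3 each; 0.21 ± 0.08, adjusted p = 0.0443), and was lost without parental replicate 1 or 2 or M12 replicate 1 or 3, without the low-count filter and with the 6 libraries alone (adjusted p up to 0.214). Of the 20 nearest tested neighbours of Smurf2 on chromosome 11, 10 were higher and 2 lower in M12, with a median of 0.39. Their part was not tested. The ratio of Smurf2 to Smurf1 TPM was 1.37, 1.45 and 1.41 in M11, 1.37, 0.931 and 1.38 in M12, and 1.79, 2.13 and 1.69 in parental cells. Parental cells lay above the 18 other libraries of the series in this ratio, the highest of which was 1.45.

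**Figure D5:**
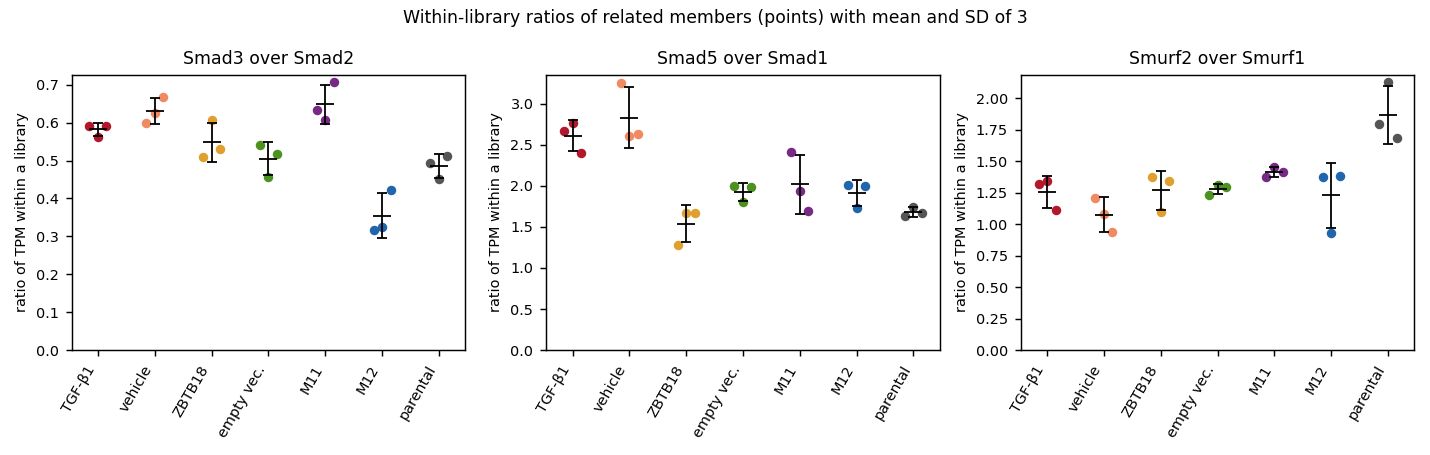
Ratios of TPM between related members within each library (points) with mean and SD of 3 libraries (bars). Smad3 over Smad2 is lowest in M12 (0.317 to 0.423), Smad5 over Smad1 highest on average in vehicle cells (2.61 to 3.25) and next in TGF-β1 cells (2.40 to 2.76), and Smurf2 over Smurf1 highest in parental cells (1.69 to 2.13).

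Set against each other, M11 had 3 members higher and 2 lower than M12, where 35.5% of all genes passed, 17.7% as higher and 17.8% as lower, and 6 of 10 did not overlap (40% of all genes). Smad3 was higher in M11 at a log2 fold change of 0.55 ± 0.09 (edgeR adjusted p = 8.85e-05), and Smad2 was lower at -0.33 ± 0.07 (adjusted p = 0.00148), both under every alternative. Smad7 was higher at 0.47 ± 0.16 (adjusted p = 0.0205), Smad5 higher at 0.21 ± 0.07 (0.0228) and Smurf1 lower at -0.33 ± 0.11 (0.0252). These 3 calls each depended on single libraries. Smad7 was lost without M11 replicate 3 or M12 replicate 2 (adjusted p up to 0.109) and Smad5 without M11 replicate 2 or M12 replicate 1 (0.110). Smurf1 was lost without M11 replicate 1 or 2 or M12 replicate 1 or 2 (0.104). Smad7 and Smad5 were also lost with the 6 libraries alone and on the TPM scale. Without M11 replicate 2 or M12 replicate 1, 3 members passed. Of the 20 neighbours of Smurf1, 11 were lower and 0 higher in M11 than in M12, and 46.9% of the tested genes of chromosome 5 were lower.

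Other genes of the pathway were counted beside all genes, of which 40.7% passed in M11, 50.1% in M12 and 35.5% in M11 against M12. The lists are short, and several counts lay near or below these shares. Of 11 receptors 7 were higher and 3 lower in M11 than in parental cells, 7 and 2 in M12, and 2 and 2 in M11 against M12. Bmpr2, the BMP type II receptor, was among the first 3 by adjusted p in both lines, at log2 fold changes of 0.80 and 0.93. Of 5 ligands 2 were higher and 3 lower in each line, with Bmp7 higher in M12 at 10.5 ± 0.652 CPM in M12 and 0.953 ± 0.186 in parental cells, and Tgfb3 lower at 11.5 ± 2.73 CPM in M12 and 33.6 ± 0.188 in parental cells (SD, n = 3 each); 1 was higher and 1 lower in M11 against M12. Of 7 TGF-β readout genes 3 were lower in M11, 4 lower and 2 higher in M12, and 2 higher and 1 lower in M11 against M12. Ldlrad4 averaged 1.19 ± 0.303 CPM in M12 and 4.97 ± 0.676 in parental cells. Of 4 BMP readout genes 0 passed in M11 with edgeR or DESeq2 (1 higher and 1 lower without the low-count filter, 2 higher on log2(TPM + 1)), 2 were lower in M12, and 1 was higher in M11 against M12. Of 16 other regulators 2 were higher and 3 lower in M11, 5 and 2 in M12, and 1 and 3 in M11 against M12. Of 12 corepressors and coactivators 6 were higher and 1 lower in M11, 5 and 2 in M12, and 3 and 3 in M11 against M12. These counts moved with the scaling and with single libraries. On log2(TPM + 1) the other regulators became 5 higher and 0 lower in M11 and 9 higher and 1 lower in M12, the receptors 7 and 0 in M11 and 7 and 1 in M12, and the ligands 2 and 0 in M11 and 2 and 1 in M12. With the 6 libraries alone the receptors were 5 and 1 in M11 and the ligands 2 and 1 in M12.

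Among omissions of a library, M11 against parental had 2 ligands higher and 1 lower without parental replicate 3, and 1 and 2 without M11 replicate 3. Its corepressors and coactivators were 4 higher and 2 lower without M11 replicate 3. Its other regulators were 1 higher and 3 lower without parental replicate 2 or M11 replicate 3, and 5 and 3 without parental replicate 3, when 1 BMP readout gene was higher. M12 against parental had 2 ligands higher and 1 lower without parental replicate 3 or M12 replicate 2. Its other regulators were 2 higher and 3 lower without parental replicate 2 or M12 replicate 3, 3 and 3 without M12 replicate 1, and 6 and 1 without M12 replicate 2. Its TGF-β readout genes had 1 higher without parental replicate 3 or M12 replicate 1 or 2, and its BMP readout genes 1 lower without parental replicate 3 or any M12 library. M11 against M12 had 0 ligands lower without M11 replicate 1, and 1 receptor higher without M11 replicate 3 or M12 replicate 2. Its corepressors and coactivators were 1 higher and 4 lower without M11 replicate 3, and 1 and 3 without M12 replicate 1. Its other regulators were 3 and 3 without M11 replicate 1, 1 and 5 without M11 replicate 3, and 2 and 4 without M12 replicate 2. Its TGF-β readout genes were 2 higher and 2 lower without M11 replicate 1 or 3 and with the replicate block, 2 and 0 without M11 replicate 2 or M12 replicate 2, and 3 and 2 without M12 replicate 3. Its BMP readout gene was lost without M11 replicate 2 or 3 or M12 replicate 1 or 2.

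Across the 21 libraries the genes most like each member were found among 9633 named genes with at least 5 CPM, by Pearson's r of log2 CPM, as a description over libraries that share groups and scaling. For Smad2 the first 3 were Ptpn2 (r = 0.92), Socs6 (0.92) and Cndp2 (0.90), all on chromosome 18. Smad4 was most like Gtf2ird1 (0.93), Csnk1a1 (0.91), also on chromosome 18, and Sbds (0.90). For Smad7 they were Zfp746 (0.90), Ski (0.90) and Ercc4 (0.90). Smad1 was most like Adcy6 (0.92), Foxc1 (0.92) and the BMP-induced Id3 (0.90). Smad3 came nearest to Ick (0.97), Def8 (0.96) and Apex1 (0.96). Smad5 came nearest to Trappc13 (0.90), also on chromosome 13, Itga5 (0.87) and Sec63 (0.86). Smurf1 followed Smcr8 (0.95), Socs7 (0.94) and Fam199x (0.94), and Smurf2 followed Itga3 (0.86), Dcbld2 (0.84) and Sec24b (0.84). For the low genes Smad6 (Tubb2b and Trmo, both 0.92) and Smad9 (Ttk, Cdc14a and Twf2, 0.83 to 0.74) the values rest on few reads. Among the members themselves the closest pairs were Smad2 with Smad4 (r = 0.77) and Smad3 with Smad7 (0.69), and the most opposed Smad1 with Smurf2 (-0.59) and Smad1 with Smad6 (-0.57).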

How the data were processed

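RNA from cultured cells was polyA-enriched and prepared with a stranded kit, per the labels. The submitters' processing notes name STAR 2.7.1a, RSEM, Trim Galore, GATK 4.1.2.0 and build mm10; the order of these steps and the annotation release are not given in the sources used here. The authors deposited RSEM expected counts per gene, not normalised, and TPM, in which RSEM divides by effective transcript length before scaling each library to the same sum, so that 1 gene with a large share shifts all others. The deposited FPKM values were not used. Groups came from sample titles.

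Expected counts were rounded (1.28% were not whole), 92 spike-in entries with 0 reads were left out, and 15432 of 55573 genes passed edgeR's filterByExpr. One edgeR 4.0.16 quasi-likelihood fit (TMM scaling, robust, R 4.3.3) held all 21 libraries with 1 mean per group (14 residual degrees of freedom) and gave 8 two-sided comparisons, adjusted by Benjamini-Hochberg over all genes tested at 0.05. The SE is the absolute log2 fold change over the square root of F. CPM are counts divided by the TMM-scaled library size, as edgeR computes them. Same-numbered libraries deviated together in every pair (r over 0.1) for TGF-β1 with vehicle cells (0.48, 0.23 and 0.54). They also did for M11 with M12 (0.22, 0.44 and 0.29). A matching across numbers met the same rule. Parental replicates 1, 2 and 3 with M11 replicates 2, 1 and 3 gave 0.42, 0.19 and 0.40. The check therefore cannot decide whether the numbers mark pairs, and the labels give them no meaning. The scripts were tested on simulated counts. Smad6 reads were also compared by an exact conditional binomial interval (95%), which covers counting error only.

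Alternatives were DESeq2 1.42.0 as test or for size factors, no low-count filter, at least 1 CPM in any 3 libraries as the filter, a fit restricted to the 6 libraries compared, limma 3.58.1 on log2(TPM + 1) and log2(TPM + 0.1), which understates changes of low genes, the replicate number as a block, each library left out, and, chosen after seeing the data, counts without Gm42418. Positions came from GENCODE vM21 (mm10), which holds all 10 identifiers with their versions, and promoters from RefSeq on GRCm38.p6. At most 0.679% of the 50-base words of a member (Smad5) occurred in another gene's transcripts, and overlapping genes had at most 2 counts in a library. The members and the 6 lists of pathway genes were chosen with earlier results of these data known. Named were all members, markers of cell types, Zbtb18, Tgfbr1 and Tgfbr2, up to 3 genes per list and comparison by adjusted p, and the 3 genes most like each member. Bmpr1a, Bmpr2 and Atoh8 beside vehicle and ZBTB18 cells, and Id1 beside empty vector cells, were named after their values were seen. Values of some genes that this rule picks are not reported here.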

Additional observations from a re-analysis of the deposited data

Results flagged for a closer look

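For 5 members a test of the difference itself found that M11 and M12 moved by different amounts relative to parental cells. The test was the edgeR contrast of M11 with M12 given above, since the parental mean cancels, and 35.5% of all genes passed it. The M11 effect minus the M12 effect was 0.55 for Smad3 and -0.33 for Smad2 on the log2 scale, and both held under every alternative run. It was 0.47 for Smad7, 0.21 for Smad5 and -0.33 for Smurf1, each of which lost its call when certain single libraries were left out. Against parental cells the log2 fold changes were -0.20 in M11 and -0.75 in M12 for Smad3, -0.56 and -0.23 for Smad2, 0.06 and -0.41 for Smad7, 0.13 and -0.09 for Smad5, and 0.43 and 0.76 for Smurf1.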

How the results depend on the processing

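Of 38 calls of members over the 8 comparisons, 22 held whichever library of the comparison was left out, 15 held under every other alternative, and 14 under all. Counts of members past the threshold moved by over 1.5 times as follows. On log2(TPM + 1) and log2(TPM + 0.1) there were 2 and 2 for ZBTB18 against empty vector, 7 and 7, all higher, for ZBTB18 against parental, 2 and 2 for vehicle against ZBTB18, 3 and 4 for M12 against parental, and 3 and 3 for M11 against M12. Without a low-count filter there were 3 for empty vector against parental, as with a filter of 1 CPM in 3 libraries (3), and 1 for TGF-β1 against vehicle. With the 6 libraries alone there were 1 for TGF-β1 against vehicle, 3 for M12 against parental and 3 for M11 against M12. On log2(TPM + 1) the median of all genes moved to 0.22 for ZBTB18, 0.21 for empty vector, 0.14 for M11 and 0.17 for M12 against parental. On log2(TPM + 1) and log2(TPM + 0.1) ZBTB18 minus parental turned positive for Smad2 (0.18 and 0.19), Smad3 (0.33 and 0.36) and Smad5 (0.27 and 0.28), and M12 minus parental for Smad2 (0.0021 and 0.0024). In all genes the split for ZBTB18 against parental was 4614 higher and 4911 lower, and on log2(TPM + 1) 6970 higher and 2185 lower. It was 4462 and 4482, then 6795 and 1868, for empty vector against parental, 3207 and 3081, then 4410 and 1287, for M11, and 3847 and 3890, then 5556 and 1560, for M12. The cause was not tested.

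Leaving out each library gave 3 to 5 members past the threshold for ZBTB18 against empty vector, 4 to 4 for ZBTB18 against parental, 3 to 5 for empty vector against parental, 3 to 5 for vehicle against ZBTB18, 0 to 0 for TGF-β1 against vehicle, 3 to 5 for M11 against parental, 5 to 7 for M12 against parental and 3 to 5 for M11 against M12. With the replicate block there were 6, 4, 6, 6, 0, 5, 8 and 5 members past the threshold in the 8 comparisons as listed above. This block gave each number an effect shared by all 7 groups, so it was not a paired fit of any 2 groups, and none was run. For TGF-β1 against vehicle and M11 against M12 the block changed no call of a member. It added Smad3 for ZBTB18 against empty vector (edgeR adjusted p = 0.0313) and for M11 against parental (0.0429). Over all groups the median r of deviations was 0.08 in 63 pairs with the same number and -0.04 in pairs with different numbers, and 18 of 21 libraries correlated best with their own number. The depth limits Smad6 and Smad9, whose counts were at most 29 and 76 in any library.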
